A study of Mus musculus with 6 samples.

Results

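The collagen family in C2C12 myotubes was examined for its response to RANKL. Its members were all rows of the deposited count table whose symbol has the form Col, a number, a and a number, which gave 33 genes of 12625. That rule reads symbols alone. C2C12 cells are murine myoblasts that fuse in culture to form myotubes with many nuclei. Myotubes that had differentiated for 5 days were given recombinant murine RANKL at 100 ng per ml for 72 hours (3 libraries) or vehicle for the same time (3 libraries). The cytokine RANKL binds RANK on its target cells and is best known for driving osteoclast formation. All 6 libraries come from the same cell line, and no genotype or animal separates them. The labels do not say whether replicates were separate cultures, so the p-values cover the spread among these libraries alone, and that spread may be technical.

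Collagens are extracellular proteins built from chains that wind into a triple helix of glycine-rich repeats. Fibrillar collagens (types I, II, III, V, XI, XXIV and XXVII) form the banded fibres of connective tissue. Type IV collagen forms the sheet-like network of the basement membrane that surrounds each muscle fibre, and type VI forms beaded filaments next to it. FACIT collagens (fibril-associated collagens with interrupted triple helices, among them types XII, XIV, XVI, XIX, XX and XXII) sit on the surface of fibrils. The remaining types include short-chain network collagens (VIII and X), the anchoring fibril collagen (VII), basement membrane zone collagen XVIII, and membrane-spanning collagens (XIII, XVII, XXIII and XXV). The 33 genes fell into 10 fibrillar, 3 basement membrane, 3 beaded filament, 6 FACIT and 11 other collagens.

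Library totals lay between 32732604 and 39677999 counts. Markers of myotubes were abundant, with a summed level of 29205 to 29958 CPM (counts scaled to library size) in RANKL libraries and 31205 to 33842 CPM in vehicle libraries. By edgeR 7 of these 13 markers fell and 0 rose, with 9 at an unadjusted p under 0.05. Among all genes tested, edgeR called 5.35% higher and 7.5% lower (adjusted p under 0.05), and 27.2% had an unadjusted p under 0.05. These shares are the background for the marker counts here. Myh8, the perinatal myosin heavy chain, averaged 220.5 ± 14.1 CPM under RANKL and 280.3 ± 18.6 CPM under vehicle (SD, n = 3 each). All 6 markers of dividing cells rose, and their summed level was 131 to 156 CPM in RANKL libraries and 94.5 to 103 CPM in vehicle libraries, with Mki67 at 52.1 ± 3.83 CPM under RANKL and 35.5 ± 2.09 CPM under vehicle. The part of either shift in the collagen values below was not tested. In such bulk samples a larger share of a cell type and more RNA per cell cannot be told apart. Of 10 fibroblast markers 7 were measured; 1 of them, Pdgfrb, fell and 0 rose, and the summed level was 696 to 711 CPM in RANKL libraries and 713 to 739.6 CPM in vehicle libraries. Of 8 osteoblast markers 5 were measured, with a sum of 418 to 448 CPM in RANKL libraries and 394 to 430.2 CPM in vehicle libraries, nearly all of it Spp1 (398 ± 17.1 CPM under RANKL, 381 ± 18.7 CPM under vehicle), which was not called. The other 4 lay at 30.2 ± 1.36 CPM or less under RANKL and 32.73 ± 0.954 CPM or less under vehicle. The remaining lists were low: 3 of 7 adipocyte markers were measured, with a sum of 18.4 to 19.2 CPM in RANKL libraries and 20.8 to 21.04 CPM in vehicle libraries, 2 of 6 endothelial markers were measured, with a sum of 1.73 to 2.33 CPM in RANKL libraries and 1.77 to 2.55 CPM in vehicle libraries, and 4 of 10 macrophage or osteoclast markers, with 6.73 to 7.64 CPM in RANKL libraries and 5.04 to 5.42 CPM in vehicle libraries. Of the macrophage or osteoclast list Mmp9 rose, and Ptprc and Csf1r were among the markers not measured.

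The myotube cultures expressed a wide range of collagens, and the bulk values do not assign that RNA to a cell type. Levels between genes were compared per length, as RPKM (CPM divided by gene length in kilobases), with the gene length that the deposited tables imply. Col3a1, the single chain of collagen III, was the most abundant, at 812, 747 and 732 RPKM in RANKL libraries 1, 2 and 3 and at 691, 659 and 659.9 RPKM in vehicle libraries 1, 2 and 3. It made up 39.5% ± 0.251 of the summed collagen RPKM in RANKL libraries and 38.8% ± 0.404 in vehicle libraries (SD, n = 3 each). Next stood Col1a2, a chain of collagen I, with 232 ± 4.87 RPKM under RANKL and 223 ± 8.48 RPKM under vehicle. It was followed by Col5a2 (154 ± 6.23 RPKM under RANKL, 144 ± 1.53 RPKM under vehicle) and Col5a1 (128 ± 10.5 RPKM under RANKL, 121 ± 6.07 RPKM under vehicle), chains of collagen V, a regulator of fibril width. Their ranges stood apart in vehicle libraries, where the lowest Col5a2 value was 143 RPKM and the highest Col5a1 value 127 RPKM. Col1a1 (109.7 ± 14.7 RPKM under RANKL, 93.0 ± 9.99 RPKM under vehicle), Col6a1 and Col12a1 came next in order of vehicle level, and in vehicle libraries these neighbours overlapped, at 84.5 to 104 RPKM for Col1a1, 86.1 to 91.2 RPKM for Col6a1 and 86.1 to 91.1 RPKM for Col12a1.

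By mean level over the 6 libraries, 14 collagens reached at least 10 RPKM, 7 lay between 1 and 10 RPKM, and 12 lay under 1 RPKM. The last group had 17 to 188 counts per library, and the standard errors of its log2 fold changes were 0.12 to 0.27, against 0.03 to 0.15 for the 14 abundant genes. A change of the size seen in most abundant collagens was therefore not detectable at this depth in the 12 low genes, none of which passed the test. Fibrillar collagens held 72.8% ± 0.284 of the summed collagen RPKM in RANKL libraries and 72.9% ± 0.127 in vehicle libraries. The basement membrane class held 9.54% ± 0.318 under RANKL and 8.92% ± 0.202 under vehicle, and the beaded filament class 9.19% ± 0.0687 under RANKL and 9.02% ± 0.0105 under vehicle.

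**Figure D1:**
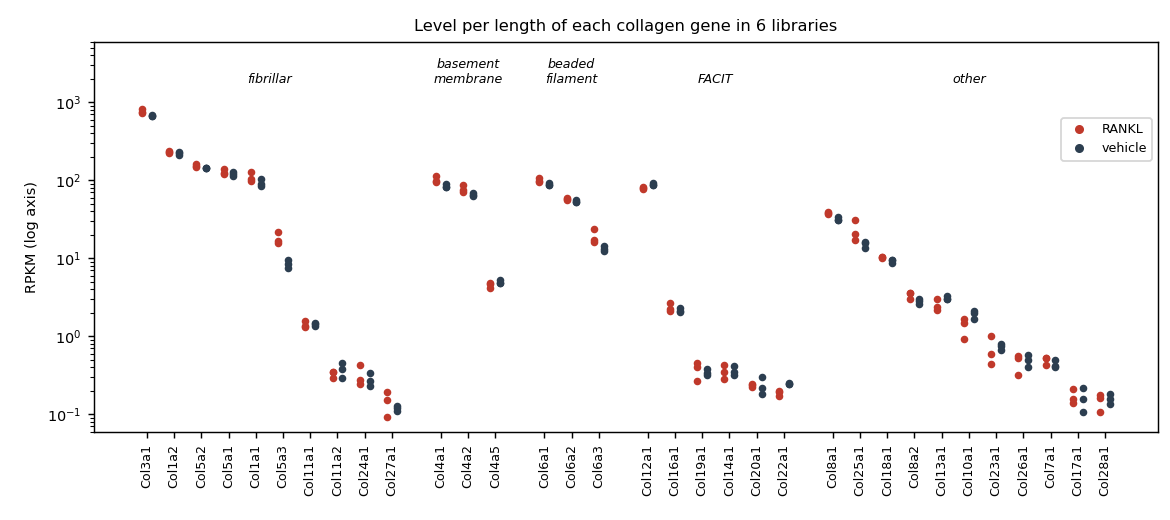
Level of each of the 33 collagen genes in RPKM (log axis), by class, with 1 point per library: RANKL libraries in red on the left, vehicle libraries in dark blue on the right of each gene. Col3a1 lies highest, at 659 to 812 RPKM, and 12 genes have a mean under 1 RPKM.

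More collagens rose than fell under RANKL. Of the 33 genes 10 rose and 1 fell (edgeR's quasi-likelihood test, adjusted p under 0.05 over all 12625 genes), which is 30.3% and 3.03% of them. Among all genes tested, 5.35% were called higher and 7.5% lower. The median log2 fold change was 0.10 over the collagens and 0.00 over all genes. Of the collagens 22 had a positive and 11 a negative value, and 51.7% of all genes had a positive value. The groups did not overlap in 14 collagens, or 42.4%, against 31.5% of all genes. The changes were small apart from Col5a3: the other 9 rising genes lay between 1.12-fold and 1.503-fold. Without vehicle replicate 2 the test called 6 collagens higher. The count of lower collagens was 0 without RANKL replicate 2, 2 without RANKL replicate 1 and 3 without RANKL replicate 3. Of the 11 calls, those of Col5a3, Col8a1, Col4a1 and Col6a1 held in all 17 alternatives. Among these, the fit with no filter on low counts repeated the main fit, because that filter removed 0 genes. It could not change a call in any of the tallies over 17 alternatives given here.

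**Figure D2:**
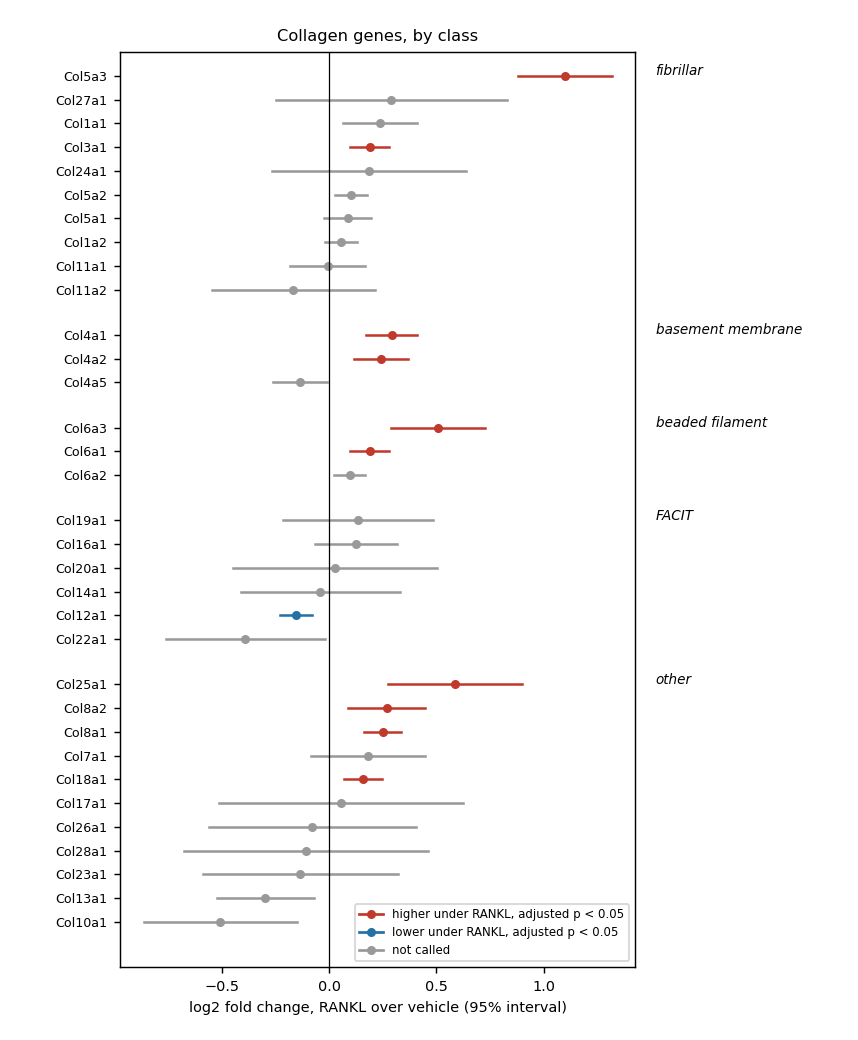
Log2 fold change of each collagen gene, RANKL over vehicle, with its 95% interval from edgeR's quasi-likelihood test (3 libraries per group), by class. The 10 genes that rose are red, Col12a1, the 1 that fell, is blue, and intervals of the low genes in grey are wide.

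Summed over the family, collagens took 1.25%, 1.15% and 1.12% of all counts in RANKL libraries 1, 2 and 3, against 1.06%, 1.03% and 1.02% in vehicle libraries 1, 2 and 3. Per length, their sum was 1933 ± 120.2 RPKM in RANKL libraries and 1729 ± 58.2 RPKM in vehicle libraries (SD, n = 3 each), and the groups did not overlap. FACIT collagens were the class with a lower sum, at 82.9 ± 2.49 RPKM under RANKL and 91.6 ± 2.74 RPKM under vehicle, nearly all of it Col12a1. These sums are descriptions, since members were chosen as a family.

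Among fibrillar collagens 2 of 10 rose and none fell. Col5a3, a chain that can replace another in collagen V heterotrimers, changed more than any other collagen. It had 133, 102 and 94.9 CPM in RANKL libraries 1, 2 and 3, and 57.2, 51.2 and 45.7 CPM in vehicle libraries 1, 2 and 3. Every RANKL library lay well above every vehicle library, and RANKL replicate 1 was the highest. The log2 fold change was 1.10 ± 0.10 (SE), or 2.14-fold (adjusted p = 8.25e-06), and it lay between 0.94 and 1.20 over the 17 alternatives. Per length, Col5a3 made up 6.78%, 5.67% and 5.49% of the summed RNA of Col5a1, Col5a2 and Col5a3 in RANKL libraries. In vehicle libraries the Col5a3 share was 3.34%, 3.09% and 2.84%. The partners of Col5a3 did not pass edgeR's test: Col5a2 had a log2 fold change of 0.10 ± 0.03 (adjusted p = 0.0705) and Col5a1 of 0.09 ± 0.05 (adjusted p = 0.305), with a 95% interval from -0.02 to 0.20 for Col5a1. Col5a2 was called in 6 of 17 alternatives, among them DESeq2 (adjusted p = 0.0422), total count scaling (0.0183), removal of the length trend (0.0132) and leaving out RANKL replicate 3 (0.0338). Col5a1 was called in 2, and without RANKL replicate 1 its log2 fold change was 0.02. On mm10 Col5a3 (ENSMUSG00000004098.7) lies on chromosome 9 from 20770050 to 20815067 on the minus strand, and its exons overlap no other annotated gene.

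Col3a1 had 4519, 4158 and 4072 CPM in RANKL libraries 1, 2 and 3, and 3846, 3666 and 3672 CPM in vehicle libraries 1, 2 and 3. The groups did not overlap, and the log2 fold change was 0.19 ± 0.04 (adjusted p = 0.00872). That call was lost without vehicle replicate 2 (adjusted p = 0.0653). Col3a1 (ENSMUSG00000026043.18) lies on chromosome 1 from 45311538 to 45349706 on the plus strand. It shares exon sequence with the gene model Gm47302 on the same strand, and its counts are uncertain to that extent. Col5a2 lies next to it on the minus strand, from 45374321 to 45503282.

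Collagen I, the main collagen of tendon, bone and scar, did not pass the test. Col1a1 had 594, 488 and 465 CPM in RANKL libraries 1, 2 and 3, and 489, 426 and 397 CPM in vehicle libraries 1, 2 and 3, so that the groups overlapped. Its log2 fold change was 0.24 ± 0.08 (adjusted p = 0.0668), and it was called in 8 of 17 alternatives, among them without RANKL replicate 3 (adjusted p = 0.0201), without vehicle replicate 1 (0.0285) and with total count scaling (0.0325). Without RANKL replicate 1 its log2 fold change was 0.13 (adjusted p = 0.135), and DESeq2 did not call it (0.347). For Col1a2 the log2 fold change was 0.05 ± 0.04, with a 95% interval from -0.02 to 0.13. Col1a2 was called in 1 of 17 alternatives, edgeR with the length trend removed and a replicate block (adjusted p = 0.0258). The ratio of Col1a1 to Col1a2 per length was 0.535, 0.449 and 0.436 in RANKL libraries and 0.453, 0.402 and 0.396 in vehicle libraries, and these ranges overlapped. The other fibrillar genes were low: Col11a1, a minor fibril chain, had 1.42 ± 0.132 RPKM under RANKL and 1.42 ± 0.0616 RPKM under vehicle, and Col11a2, Col24a1 and Col27a1 lay under 1 RPKM with log2 fold changes from -0.17 to 0.29.

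Basement membrane collagen IV rose in its common chains. Col4a1 had 756, 655 and 631 CPM in RANKL libraries 1, 2 and 3, and 587, 538 and 542 CPM in vehicle libraries 1, 2 and 3, a log2 fold change of 0.29 ± 0.06 (adjusted p = 0.00326). Col4a2, its partner chain, had 555, 477 and 456 CPM in RANKL libraries, and 445, 403 and 411 CPM in vehicle libraries, a log2 fold change of 0.24 ± 0.06 (adjusted p = 0.0149). In both genes the groups did not overlap and RANKL replicate 1 was the highest. Without RANKL replicate 1 the log2 fold change of Col4a2 was 0.15 (adjusted p = 0.00961), and its call was lost without vehicle replicate 2 (0.0878), without vehicle replicate 3 (0.0644) and in DESeq2 (0.1001). Per length, the ratio of Col4a1 to Col4a2 was 1.32 to 1.34 in RANKL libraries and 1.28 to 1.297 in vehicle libraries. Col4a5, a chain of the X chromosome known from Alport syndrome in humans, ran the other way but was not called, with 4.55 ± 0.378 RPKM under RANKL, 4.98 ± 0.184 RPKM under vehicle and a log2 fold change of -0.14 ± 0.06 (adjusted p = 0.149).

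**Figure D3:**
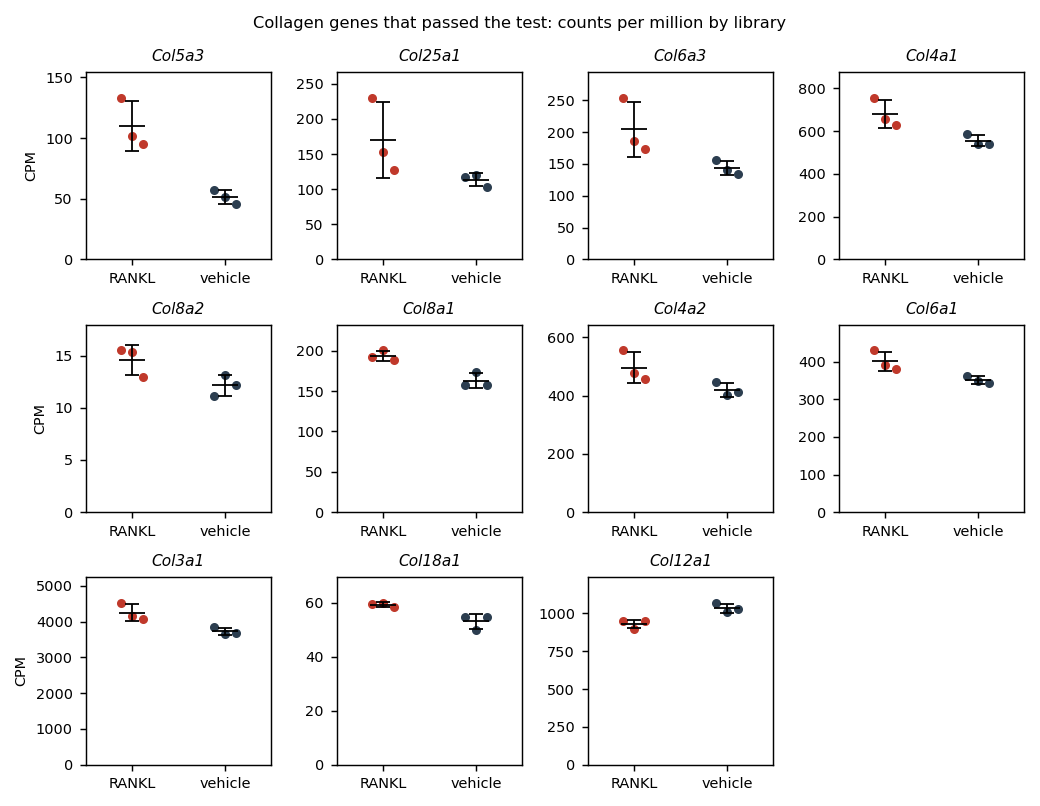
CPM of the 11 collagen genes that passed the test, with 1 point per library, the mean as a bar and the SD as whiskers (n = 3 per group), RANKL left of vehicle. The groups overlap only in Col8a2, and RANKL replicate 1, the leftmost red point, is far above the other RANKL libraries in Col25a1 and Col6a3.

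Col4a1 and Col4a2 are known for a shared head-to-head promoter, and their starting region is printed because both genes rose. By the RefSeq starts on GRCm38.p6, Col4a1 starts at position 11312826 of chromosome 8 on the minus strand and Col4a2 at 11312805 on the plus strand, so that the first transcribed bases of both overlap. By the GENCODE M21 annotation their exons overlap too, on opposite strands. Each window runs from 250 bases before to 50 bases after the start, and the windows of the pair share 78 bases. The windows of Col4a2 and of Col5a3, the gene with the highest fold change, read as follows, with CCAAT and its reverse complement in capitals.
Col4a2, chr8:11312555-11312854, plus strand: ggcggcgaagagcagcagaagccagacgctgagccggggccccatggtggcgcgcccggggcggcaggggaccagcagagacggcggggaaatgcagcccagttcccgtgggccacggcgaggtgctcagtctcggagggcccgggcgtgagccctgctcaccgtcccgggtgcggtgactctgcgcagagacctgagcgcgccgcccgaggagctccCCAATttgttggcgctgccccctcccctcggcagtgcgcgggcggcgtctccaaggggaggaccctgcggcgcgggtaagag
Col5a3, chr9:20815018-20815317, minus strand: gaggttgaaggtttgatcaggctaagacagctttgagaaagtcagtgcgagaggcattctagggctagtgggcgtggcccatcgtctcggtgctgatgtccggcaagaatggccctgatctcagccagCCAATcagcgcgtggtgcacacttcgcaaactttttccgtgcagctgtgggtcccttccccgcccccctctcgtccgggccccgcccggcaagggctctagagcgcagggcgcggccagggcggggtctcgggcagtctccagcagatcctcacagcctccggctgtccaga

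RefSeq windows were at hand for 27 of the 33 collagens, 29 windows in all. Collagens were counted by gene, over all windows of that gene. The background was counted by single window and was not limited to genes of the count table. The shares below are therefore not strictly like for like. The CCAAT box, long known from collagen I promoters, was found on either strand in 40.7% of these collagens, against 37.4% of all 32851 RefSeq windows. The GC box GGGCGG, searched in the same way, was found in 63.0% of the collagens and in 35.7% of all windows. The AP-1 motif TGANTCA stood in 3.70% of the collagens and in 7.81% of all windows, and the consensus NF-kB motif in 3.70% and 4.51%. The collagen with the AP-1 motif was Col6a1, which rose (log2 fold change 0.19 ± 0.04, adjusted p = 0.00845), and the collagen with the NF-kB motif was Col27a1, which was not called (0.29 ± 0.25, adjusted p = 0.503).

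Beaded filament collagen VI rose in 2 of its 3 chains. Col6a3, the long chain that also gives rise to the fragment endotrophin, had 254, 186 and 173 CPM in RANKL libraries 1, 2 and 3, and 156, 141 and 134 CPM in vehicle libraries 1, 2 and 3. The groups did not overlap, and RANKL replicate 1 stood far above the rest. The log2 fold change was 0.51 ± 0.10 (adjusted p = 0.00456), and without RANKL replicate 1 it was 0.33 (adjusted p = 6.39e-05). DESeq2 did not call it (adjusted p = 0.0578). Col6a1 had 429.9, 391 and 382 CPM in RANKL libraries, and 363, 349.6 and 342 CPM in vehicle libraries, a log2 fold change of 0.19 ± 0.04 (adjusted p = 0.00845). Col6a2, which lies near Col6a1 on chromosome 10, had a log2 fold change of 0.10 ± 0.03 (adjusted p = 0.0848), with groups that did not overlap, and was called in 5 of 17 alternatives, among them total count scaling (0.0207). Per length, the ratio of Col6a3 to Col6a1 was 0.216, 0.175 and 0.167 in RANKL libraries, and 0.158, 0.148 and 0.144 in vehicle libraries.

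FACIT collagens held the only gene that fell. Col12a1, which bridges collagen I fibrils to their surroundings, had 947, 898 and 947 CPM in RANKL libraries 1, 2 and 3, and 1068, 1009 and 1026 CPM in vehicle libraries 1, 2 and 3. All RANKL libraries lay below all vehicle libraries. The log2 fold change was -0.15 ± 0.03 (adjusted p = 0.0103), leaving out RANKL replicate 2 ended the call (0.0757), and removing the trend on gene length gave -0.10 (0.0374). Col12a1 has the largest implied length of the 33 genes, 11719 bases. Col16a1 had 2.37 ± 0.298 RPKM under RANKL and 2.17 ± 0.137 RPKM under vehicle and was not called (log2 fold change 0.13 ± 0.09). Col14a1, Col19a1, Col20a1 and Col22a1 lay under 1 RPKM. Col22a1, a collagen of the myotendinous junction, had 1.19, 1.20 and 1.06 CPM in RANKL libraries, and 1.54, 1.503 and 1.49 CPM in vehicle libraries; these groups did not overlap, but the log2 fold change of -0.39 ± 0.17 was not called (adjusted p = 0.162).

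Of the 11 other collagens 4 rose. Col25a1, a membrane-spanning collagen that motor neurons require to innervate developing muscle in mice, had 230.1, 153 and 127 CPM in RANKL libraries 1, 2 and 3, and 117, 119.8 and 103 CPM in vehicle libraries 1, 2 and 3. RANKL replicate 1 was nearly apart from the other RANKL libraries, although all 3 lay above the vehicle libraries. The log2 fold change was 0.59 ± 0.15 (adjusted p = 0.0165), and 0.31 without RANKL replicate 1 (adjusted p = 0.00157). The call was lost without vehicle replicate 1 (0.0571), without vehicle replicate 3 (0.0792) and in DESeq2 (0.173). Both chains of the network collagen VIII rose: Col8a1 had 192, 200.4 and 189 CPM in RANKL libraries, and 158, 173 and 158 CPM in vehicle libraries, a log2 fold change of 0.25 ± 0.04 (adjusted p = 0.0010). RANKL replicate 1 did not stand out in this gene.

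Col8a2 had 15.5, 15.3 and 12.9 CPM in RANKL libraries 1, 2 and 3, and 11.1, 13.2 and 12.2 CPM in vehicle libraries 1, 2 and 3. Here the groups overlapped, the log2 fold change of 0.27 ± 0.08 was close to the threshold (adjusted p = 0.0493), and leaving out any 1 library other than RANKL replicate 3 ended the call (adjusted p from 0.0522 to 0.201), as did DESeq2 (0.0595). Col18a1, whose cleaved end is endostatin, had 59.6, 59.8 and 58.3 CPM in RANKL libraries, and 54.5, 49.95 and 54.8 CPM in vehicle libraries, a log2 fold change of 0.16 ± 0.04 (adjusted p = 0.0222). It lost its call without RANKL replicate 2 (0.0759) and without vehicle replicate 2 (0.115). Among the genes of this class that were not called, the lowest log2 fold changes were those of Col10a1, the collagen of hypertrophic cartilage (-0.51 ± 0.17, adjusted p = 0.0627), and Col13a1, a membrane-spanning collagen of the neuromuscular junction (-0.30 ± 0.11, adjusted p = 0.0841). Col10a1 was called in DESeq2 (adjusted p = 0.0414) and without RANKL replicate 3, at -0.69 (0.0175), while leaving out RANKL replicate 1 gave -0.28 (0.152). Without RANKL replicate 1 Col13a1 was called, at -0.45 (adjusted p = 0.0024). With a mean of 1.36 ± 0.389 RPKM under RANKL and 1.91 ± 0.226 RPKM under vehicle, Col10a1 was a minor collagen, and its exons overlap those of Nt5dc1 on the opposite strand. Col7a1, Col17a1, Col23a1, Col26a1 and Col28a1 lay under 1 RPKM, with log2 fold changes from -0.13 to 0.18. Of these Col23a1 turned on single libraries: its log2 fold change of -0.13 ± 0.21 became -0.51 without RANKL replicate 3, where it was called (adjusted p = 0.0442), and 0.11 without RANKL replicate 1 (0.725).

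Libraries of a group differed along with many collagens at once. Among the 30 collagens with a mean of at least 1 CPM, RANKL replicate 1 was the highest RANKL library in 20 and RANKL replicate 3 the lowest in 20. Vehicle replicate 1 was the highest vehicle library in 21. Over all genes at that level, RANKL replicate 1 was the highest of its group in 35.4% and vehicle replicate 1 in 37.3%. The share of all genes in which RANKL replicate 3 was the lowest was not computed. RANKL replicate 1 was the top RANKL library in 8 of the 10 genes that rose, all but Col8a1 and Col18a1. In 5 collagens, Col4a5, Col10a1, Col14a1, Col23a1 and Col26a1, it was the lowest. Without RANKL replicate 1 the test called 9 collagens higher and 2 lower.

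**Figure D4:**
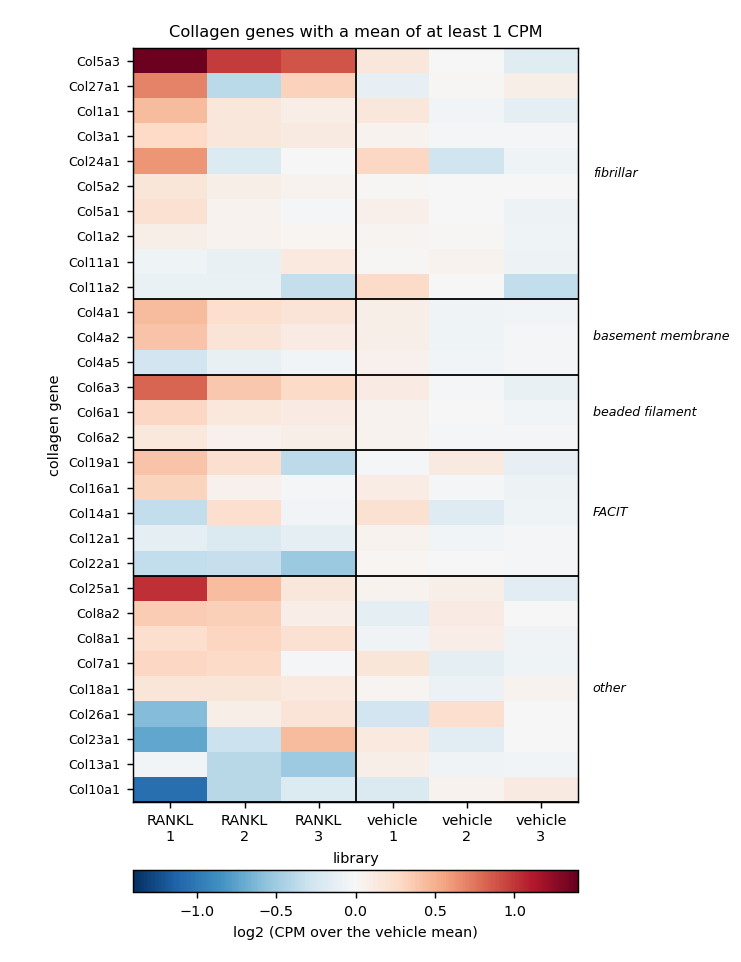
Log2 ratio of CPM to the vehicle mean for the 30 collagen genes that averaged 1 CPM or more (rows, by class) in each library (columns), red for higher and blue for lower. RANKL replicate 1 has the deepest red in Col5a3, Col6a3 and Col25a1 and the deepest blue in Col10a1.

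A sequence feature that the family is known for is pairing with the miR-29 microRNAs, which repress many matrix genes. The 3 mature miR-29 strands are printed because they carry the same seed, bases 2 to 8, in capitals (RefSeq, GRCm38.p6).
mmu-miR-29a-3p: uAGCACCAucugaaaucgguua
mmu-miR-29b-3p: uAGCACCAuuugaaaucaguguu
mmu-miR-29c-3p: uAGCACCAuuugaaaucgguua

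The letters TGGTGCT, complementary to that seed, were searched on the sense strand of the 3′ UTR of the longest coding transcript in GENCODE M21. They stood in 18 of 31 collagens (58.1%), against 16.0% of 11636 genes of the table, at median UTR lengths of 1110 bases and 1192 bases. Col5a3 held 3 matches, and Col4a1, Col4a2 and Col3a1 at least 1 each. Col8a1 and Col25a1 also rose and held 1 match each, which is not printed. The matches of Col5a3, Col4a1, Col4a2 and Col3a1 are printed as examples among the genes that rose, on mm10, with the match in capitals.
Col5a3, chr9:20770773-20770802, minus strand: cccacatgggctcctTGGTGCTgaggctct
Col5a3, chr9:20770496-20770525, minus strand: ctccaccaggcctttTGGTGCTattccttt
Col5a3, chr9:20770244-20770273, minus strand: aatcaggatcctacaTGGTGCTgccctgct
Col4a1, chr8:11199754-11199783, minus strand: gccaccgtcacaacaTGGTGCTactccccc
Col4a2, chr8:11448344-11448373, plus strand: gtgggaaggccacgtTGGTGCTtatccttc
Col4a2, chr8:11448515-11448544, plus strand: ccaccacacccagctTGGTGCTtactctta
Col3a1, chr1:45348967-45348996, plus strand: ttcaaaatgtctcaaTGGTGCTataataaa

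Of the 18 collagens with a match 6 rose and 0 fell, with a median log2 fold change of 0.18. Of the 13 without a match 2 rose and 1 fell, with a median of -0.04. For comparison, 30.3% of all collagens rose and 3.03% fell, against 5.35% and 7.5% of all genes. Col6a3 and Col18a1, which also rose, were not among the collagens searched and are in neither group. The groups differed in level too. Without a match, Col11a2, Col14a1, Col17a1, Col19a1, Col20a1, Col23a1 and Col28a1 lay under 1 RPKM, where no collagen was called. With a match, Col7a1, Col22a1, Col24a1, Col26a1 and Col27a1 did. The part of level in this contrast was not tested. These counts are a description with no test, and Col5a1, with 4 matches, had a log2 fold change of 0.09 ± 0.05. Mature miRNAs were not analysed here.

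Genes that make, process and bind collagen did not share one direction. Of 81 measured pathway genes 8 rose and 13 fell, 9.88% and 16.0% of them, where 5.35% of all genes tested were higher and 7.5% lower. These shares of all genes are the background for the counts of each list below, which hold 4 to 20 genes. Their median log2 fold change was -0.01, against 0.00 over all genes. Of 20 enzymes and chaperones that modify and fold the chains only Plod2 was called. In this list 1 gene had an unadjusted p under 0.05, as did 27.2% of all genes. Plod2, the lysyl hydroxylase of collagen telopeptides, averaged 135 ± 1.58 CPM in RANKL libraries and 115 ± 1.88 CPM in vehicle libraries, a log2 fold change of 0.23 ± 0.03 (adjusted p = 0.000304). Of 11 export genes only Klhl12, a ubiquitin ligase adaptor for large procollagen carriers, was called (log2 fold change 0.17 ± 0.04, adjusted p = 0.0239). Among 6 crosslinking genes Lox, a lysyl oxidase, averaged 638 ± 17.8 CPM under RANKL and 577 ± 23.2 CPM under vehicle, a log2 fold change of 0.14 ± 0.04 (adjusted p = 0.0166). Its relative Loxl2 rose by 0.27 ± 0.06 on the log2 scale (adjusted p = 0.00997).

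Enzymes that trim procollagen had 3 of 6 members lower. Adamts14, a protease of the amino-terminal propeptide, had 151, 153 and 152 CPM in RANKL libraries 1, 2 and 3, and 181, 173 and 172 CPM in vehicle libraries 1, 2 and 3. The log2 fold change was -0.20 ± 0.03 (adjusted p = 0.000948). Tll1, a protease of the carboxy-terminal propeptide, was low, at 0.666 ± 0.0937 CPM under RANKL and 1.31 ± 0.259 CPM under vehicle, and fell by 0.98 ± 0.23 on the log2 scale (adjusted p = 0.0109). Pcolce, which enhances that cleavage, fell by 0.14 ± 0.04 (adjusted p = 0.0288). Of 11 fibril-binding genes 3 fell: Prelp (-0.54 ± 0.05, adjusted p = 7.39e-06), Ogn (-0.34 ± 0.06, 0.00135) and the basement membrane linker Nid2 (-0.25 ± 0.04, 0.00145). Tll1 lost its call without RANKL replicate 2 or vehicle replicate 3, Klhl12 without RANKL replicate 2, vehicle replicate 1 or vehicle replicate 2, and Lox without RANKL replicate 2 or vehicle replicate 3. Pcolce was called in 10 of 17 alternatives, and lost its call without any 1 vehicle library or RANKL replicate 1 and with total count scaling or the trend on GC content removed (-0.09).

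Among 8 receptors and uptake genes Cd44 rose (0.26 ± 0.04, adjusted p = 0.000257) and Itga10, a collagen-binding integrin chain, fell (-0.38 ± 0.08, 0.00924). Itga10 lost its call in DESeq2 and without vehicle replicate 3. Of 4 measured collagenases and gelatinases 2 rose. Mmp13, an interstitial collagenase, had 5.598, 8.17 and 8.42 CPM in RANKL libraries 1, 2 and 3, and 3.91, 3.82 and 3.22 CPM in vehicle libraries 1, 2 and 3, a log2 fold change of 1.01 ± 0.15 (adjusted p = 0.000521). Here RANKL replicate 1 was the lowest of its group. Mmp9, a gelatinase, was low, at 0.775 ± 0.119 CPM under RANKL and 0.261 ± 0.142 CPM under vehicle (log2 fold change 1.58 ± 0.35, adjusted p = 0.0082). Mmp2, the abundant gelatinase, fell by 0.23 ± 0.06 on the log2 scale (adjusted p = 0.0154), though not in DESeq2, without vehicle replicate 2 or 3, or with the trend on GC content removed, and the value was -0.14 without RANKL replicate 1.

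In the list of TGF-beta and collagen transcription genes 5 of 15 measured members fell and 1 rose. TGF-beta is the classical inducer of collagen genes. Its ligand Tgfb3 had 274, 304 and 292 CPM in RANKL libraries 1, 2 and 3, and 343, 341 and 335 CPM in vehicle libraries 1, 2 and 3, so that all RANKL libraries were lower. The log2 fold changes were -0.23 ± 0.04 for Tgfb3 (adjusted p = 0.00117), -0.22 ± 0.04 for the receptor Tgfbr2 (0.00143) and -0.20 ± 0.03 for the signal transducer Smad3 (0.00145). These 3 calls held in all 17 alternatives. Outside the naming rule, Scx and Wwtr1 also fell and Tgfbr3 rose, named after their values were seen; Scx and Wwtr1 were each called in 11 of 17 alternatives and Tgfbr3 in 15. Removing the trend on GC content put Scx at -0.07.

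**Figure D5:**
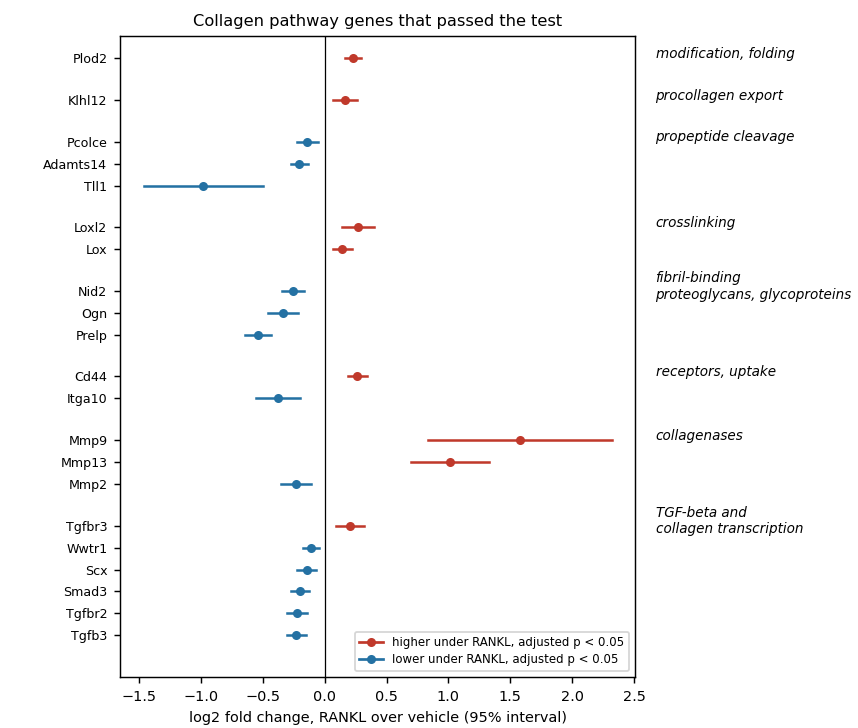
Log2 fold change, RANKL over vehicle, with its 95% interval for the 21 collagen pathway genes that passed edgeR's quasi-likelihood test (3 libraries per group), by list. Red genes rose and blue genes fell: Mmp9 (1.58) and Mmp13 (1.01) lie farthest to the right and Tll1 (-0.98) farthest to the left.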

How the data were processed

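Gene expression was profiled by paired-end RNA sequencing (75 bases) in 6 libraries. The submitters' processing notes list mm10, STAR, FastQC and edgeR but neither versions nor roles. The read counter, annotation and strand setting were not given in the sources used here. Raw counts were deposited by the authors for 12625 symbols, followed by 4708 empty lines that were left out, and log2 values whose unit the header does not name. From the values, the deposited log2 numbers are log2 RPKM, with TMM scaling and a prior count of 2, to within 0.00382, which gave each gene's length. Whether low genes were removed before deposit is not stated there.

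Counts were tested with edgeR 4.0.16 (R 4.3.3): TMM, filterByExpr (0 genes removed), quasi-likelihood F test, Benjamini-Hochberg adjustment over all genes. The SE is the log2 fold change divided by the square root of F. Alternatives were total count and RLE scaling, DESeq2 1.42.0, limma-voom (limma 3.58.1), 2 filters, a replicate block, trends on length or GC content, and each library left out. Of the 2 filters, the setting with no filter repeated the main fit, since filterByExpr removed 0 genes. The GC trend was chosen after seeing the data. Steps were tested on simulated data. Chi-square per gene between libraries of the same group was 3.39 to 9.52, above counting noise, so all were kept.

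Members and lists were chosen with earlier results of these data known. The naming rule took every collagen, up to 3 called genes per pathway list by smallest p (otherwise the smallest p), and up to 2 called markers. Positions come from GENCODE M21 (mm10), which matched 12176 symbols; promoters and miRNAs come from RefSeq. Mmp9 stands in 2 lists. Of 8 osteoblast markers 5 were measured and of 7 adipocyte markers 3, with 0 called by edgeR. At an unadjusted p under 0.05 stood 1 and 2 of them, and 27.2% of all genes. Of 6 myoblast markers 5 were measured: Vcam1 rose (log2 fold change 1.39 ± 0.06) and Cdh15 fell (-0.29 ± 0.03).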

Additional observations from a re-analysis of the deposited data

How the results depend on the processing

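With total count scaling, 1070 of all genes were higher and 626 lower, against 676 and 947 with TMM, so the balance over all genes rests on the scaling; the median gene moved by log2 0.03. For collagens total count scaling gave 13 higher and 1 lower. Lower collagens numbered 2 in DESeq2 and 2 with the GC trend removed and a replicate block, and 3 with the replicate block alone and 3 with the length trend removed and the block. Leaving out 1 library gave 373 to 746 higher and 537 to 880 lower among all genes, 6 to 12 higher and 0 to 3 lower collagens, and 7 to 12 lower pathway genes. Other counts stayed within 1.5 times of those reported. The main test did not pair samples by replicate number, and whether the numbers pair them was not settled. Over all genes, deviations of same-numbered libraries correlated at 0.07, 0.04 and 0.02. Among the 30 collagens with a mean of at least 1 CPM, replicate 1 was the highest of its group in 20 under RANKL and 21 under vehicle. With the replicate block 11 collagens were higher, and Col1a1 (adjusted p = 0.000255), Col10a1 (0.00876) and Col13a1 (0.0312) gained a call. Every library correlated best with its own number, as a hint from the data, RANKL replicate 3 by 0.0182 against 0.0181. The depth limits the 12 collagens under 1 RPKM. The causes of these shifts were not tested.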
